A study of Mus musculus with 6 samples.

Results

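The genes described here are the high-numbered Zfp genes, named Zfp600 to Zfp999, in a table of 14005 mouse gene identifiers measured by RNA-seq. The members were taken by symbol: 142 rows matched the name rule, Zfp979 was left out by that rule, and 141 remained. The rule used no measured value, though it was set with earlier results of these data known. All 141 members passed the filter on low values, a mean of at least 10 normalized counts over the libraries. GENCODE M21 annotates 139 of them as protein-coding and Zfp783 and Zfp939 as transcribed unprocessed pseudogenes.

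Zfp is the mouse symbol for a zinc finger protein, and most proteins named this way carry fingers of the C2H2 type, in which a zinc ion held by cysteines and histidines folds a short loop that can contact DNA. In many of them a KRAB domain binds TRIM28, which recruits the histone methyltransferase SETDB1 and HP1 proteins and so lays down repressive chromatin, in large part over retrotransposons. KRAB zinc finger genes lie in clusters that grew by local duplication, and their numbers differ widely between species. Others of the series have no KRAB domain and serve in splicing, ribosome assembly or transcription. The number in a symbol is the order of naming, not a class of function.

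PolyA-selected RNA of primary bone marrow-derived macrophages was compared between 3 wild-type libraries of strain C57BL/6J and 3 libraries labelled Txn1 KO, all from cells given as pooled male and female, with no age in the labels. The second group carries the allele written Txn1tm1.1Ees/J together with B6.129P2-Lyz2tm1(cre)lfo/J, a Cre recombinase inserted in Lyz2, the lysozyme gene of macrophages and other myeloid cells; no library with the Cre alone was analysed here. The stated aim concerned NLRP1 inflammasome genes after loss of TRX1. Values are the authors' normalized counts, which are reads divided by a size factor per library. Libraries held 22508616 to 38726953 reads in the listed genes. Wild-type replicate 1 and Txn1 KO replicate 3 stood apart: both carried liver transcripts, where Alb, the albumin gene, stood at 643 and 580.0 normalized counts and elsewhere at no more than 0.838. Txn1 did not differ as a whole-gene sum (12580 ± 532 against 12349 ± 367 normalized counts, SD, n = 3 each, adjusted p = 0.686), which cannot show a deletion of part of the gene, while Lyz2 fell from 364408 ± 3550 to 3118 ± 1281. The 9 identifiers of 8 macrophage markers summed to 134137 to 141012 normalized counts over the 6 libraries, and 7 of them changed: both Itgam identifiers and Mertk rose, and Fcgr1, Cd14, Mrc1 and Cd68 fell. Of 5 listed neutrophil markers 2 fell (summed levels 291 to 316 in wild type and 256 to 297 in Txn1 KO) and of 5 dendritic cell markers Ccr7 rose. Of the stromal markers 5 of 8 fell, with summed levels of 2387 to 2736 normalized counts in wild type and 1172 to 2064 in Txn1 KO, and all 7 Y-linked genes fell (median log2 change -1.02). Of 5 T cell and 4 B cell markers only Lck and Cd79b were listed, and none of 4 erythroid markers was. The part of these differences in the results for the Zfp genes was not tested, and in bulk RNA fewer cells of a type and less RNA per cell cannot be told apart.

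Promoters of the members can be compared with those of other genes, since 124 of the 141 have an entry in the RefSeq promoter table (build GRCm38.p6). Over the 250 bases before the start site the members had a median of 9 CpG dinucleotides and 53.2% G or C, against 16 and 59.6% over the 10085 tested genes with a window and 12 and 55.2% over 151 lower-numbered Zfp genes. CCAAT on either strand, the core letters of the site of the factor NF-Y, stood in 70 members (56.5%), in 40.4% of the lower-numbered Zfp genes and in 36.5% of the tested genes. GGGCGG on either strand is the GC box bound by SP1 and its relatives. It stood in 40.3% of the members, 41.1% of the lower-numbered Zfp genes and 58.8% of the tested genes. TGACNNNGC on either strand, the core of the element bound by NRF2, stood in 14.5%, 11.3% and 12.2% in that order. TATAAA on either strand stood in 3.23%, 7.95% and 6.46%. Matches to different patterns were counted separately and may overlap in place. A match describes letters only and is not a measured binding site. Below are the upstream windows of 4 members that fell, shown because they let the reader see these promoters. They belong to the called members with the smallest p whose window touches no annotated exon. Bases inside the GENCODE gene are left off, and capitals mark CCAAT or its reverse complement.
Zfp672 (chr11:58330340-58330589, minus strand): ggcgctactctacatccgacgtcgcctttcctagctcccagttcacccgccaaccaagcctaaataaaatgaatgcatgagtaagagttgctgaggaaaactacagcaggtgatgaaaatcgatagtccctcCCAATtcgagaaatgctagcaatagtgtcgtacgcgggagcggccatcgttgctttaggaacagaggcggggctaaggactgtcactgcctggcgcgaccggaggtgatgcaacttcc
Zfp951 (chr5:104860071-104860318, minus strand): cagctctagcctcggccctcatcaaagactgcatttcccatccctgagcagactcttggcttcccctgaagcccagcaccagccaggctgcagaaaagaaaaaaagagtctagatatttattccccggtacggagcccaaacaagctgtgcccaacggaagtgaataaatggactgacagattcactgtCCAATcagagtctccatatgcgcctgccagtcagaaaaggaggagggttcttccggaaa
Zfp637 (chr6:117840931-117841179, plus strand): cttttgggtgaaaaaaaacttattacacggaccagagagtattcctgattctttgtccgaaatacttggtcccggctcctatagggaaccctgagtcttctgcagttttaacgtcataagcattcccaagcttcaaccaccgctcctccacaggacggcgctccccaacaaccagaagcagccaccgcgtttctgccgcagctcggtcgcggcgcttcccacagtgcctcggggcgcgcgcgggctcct
Zfp719 (chr7:43579336-43579585, plus strand): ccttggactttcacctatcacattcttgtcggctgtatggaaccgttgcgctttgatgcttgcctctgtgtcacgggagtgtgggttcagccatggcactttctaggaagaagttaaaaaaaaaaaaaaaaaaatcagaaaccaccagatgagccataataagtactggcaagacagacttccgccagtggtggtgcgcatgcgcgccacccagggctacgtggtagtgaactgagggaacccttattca
The windows of Zfp672 and Zfp951 hold 1 CCAAT each and those of Zfp637 and Zfp719 hold 0. They also differ in CpG content, with 19 in Zfp637, 16 in Zfp672, 9 in Zfp719 and 6 in Zfp951. Among the 13 called members that fell and have a window, CCAAT stood in 8 (61.5%), and among 111 members not called in 62 (55.9%).

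Few of the high-numbered Zfp genes changed, and nearly all that did were lower in the Txn1 KO libraries. Of the 141 members, 15 fell and 1 rose in a limma fit of log2(normalized count + 1) over all 13977 tested genes at a Benjamini-Hochberg adjusted p under 0.05. Those 15 are 10.6% of the members, beside 9.97% of all tested genes called lower, so the share that fell lies near the background. The 1 that rose is 0.709% of the members, beside 11.5% of all tested genes called higher. The log2 change (Txn1 KO over wild type) was below 0 for 98 members (69.5%) and for 51.0% of all tested genes. Its median was -0.10 over the members and 0.00 over all tested genes. No member reached a change of 2-fold, which 2.97% of all tested genes did, and 2 members reached 1.5-fold.

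**Figure D1:**
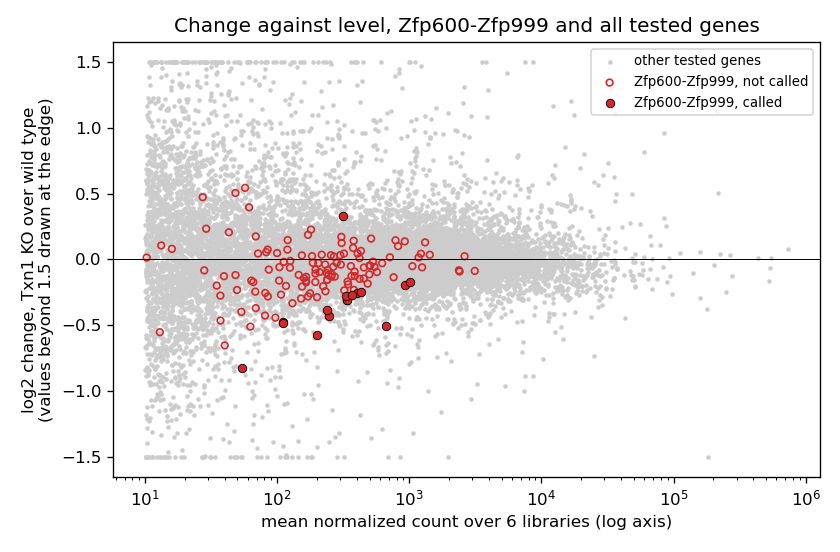
Log2 change (Txn1 KO over wild type, vertical) against mean normalized count over the 6 libraries (horizontal, log axis) for all tested genes (grey) and the 141 members (red, filled where called), with values beyond 1.5 drawn at the edge. The members lie in a narrow band, and 15 of the 16 filled points are below 0.

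The range of levels among the members was wide. Their means ran from 10.3 normalized counts in Zfp941 to 3127 in Zfp710, with a median of 230.2 against 553 over all tested genes. Per kb of exon the median was 53.6 normalized counts for the members, 45.3 for the lower-numbered Zfp genes and 121 for all tested genes. By level, in groups of 47 members each, 3 were called among those with the lowest levels (10.3 to 130.3), 5 among the middle ones and 8 among the highest (339 to 3127). The median log2 change was -0.13, -0.11 and -0.06 in that order, and the median standard error was 0.19, 0.11 and 0.079. The 95% interval of the change lay within 1.5-fold in both directions for 106 of the 141 members and within 2-fold for 135. Of the 125 members without a call, 97 had an interval within 1.5-fold and 120 within 2-fold. Only 1 of the 16 called members reached 1.5-fold, so these bounds leave room for changes as large as most of those called. A p over the threshold does not show equal levels.

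Zfp984 had the smallest p of the members. Its 3 wild-type libraries held 826, 744 and 782 normalized counts and its Txn1 KO libraries 540.2, 514 and 600.2. All Txn1 KO values lay below all wild-type values, and the gene fell by 0.51 ± 0.071 (log2, SE, n = 3 each; limma adjusted p = 4.5e-05). Zfp984 is on chromosome 4 (147753974 to 147809788, minus strand, GRCm38), 89.8 Mb from Txn1. Stretches shared with other genes at 98% identity or more cover 10.3% of its longest transcript. The longest match is to Gm20707, an annotated gene that overlaps Zfp984 on the same strand, so reads may be split between these genes.

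Zfp825 on chromosome 13 (74480054 to 74493992, minus strand) held 222, 259.6 and 238 normalized counts in wild type and 161, 164 and 156 in Txn1 KO. The groups did not overlap, and the mean of 160.3 ± 3.82 was 0.668 of the wild-type mean of 239.9 ± 18.8 (SD, n = 3 each; limma adjusted p = 0.000783). A near-identical copy, Gm46430, covers up to 22.4% of its transcript and makes the value less certain. Zfp672 on chromosome 11 (58315114 to 58330339, minus strand) held 290.4, 271 and 281 in wild type and 190.1, 220.1 and 217 in Txn1 KO. It fell by 0.43 ± 0.099 (log2, SE; limma adjusted p = 0.00462) and has no near-identical copy, but 1700047K16Rik overlaps it on the opposite strand. The sources used here do not give the strand setting of the counting, so reads of such overlapping pairs may be mixed.

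The member with the deepest fall was Zfp951 on chromosome 5 (104813169 to 104860070, minus strand). Its wild-type libraries held 64.2, 83.1 and 59.5 normalized counts and its Txn1 KO libraries 32.5, 45.0 and 37.7, so every Txn1 KO value was below every wild-type value at a low level. The ratio of means was 0.556 (log2 -0.83 ± 0.22, SE; limma adjusted p = 0.0122). Zfp719 on chromosome 7 (43579610 to 43593235, plus strand) held 130.4, 128 and 125 in wild type and 95.1, 92.8 and 86.1 in Txn1 KO. Replicates were tight in both groups, at 128 ± 2.76 and 91.3 ± 4.64 (SD; limma adjusted p = 0.0191). Zfp970 on chromosome 2 (177464733 to 177478129, plus strand) held 107, 148 and 130.0 against 88.1, 101 and 84.8 (limma adjusted p = 0.0389), without overlap, though wild-type replicate 1 came close to the highest Txn1 KO library. Zfp810 on chromosome 9 (22276748 to 22307648, minus strand) held 259, 312 and 237 in wild type against 211, 179.9 and 225 in Txn1 KO, a ratio of 0.762.

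Smaller falls were measured in members with higher counts than Zfp951, Zfp719, Zfp970 and Zfp810. Zfp984, at still higher counts, fell by 0.51 on the log2 scale. The median standard error of the members was 0.19 at the lowest levels and 0.079 at the highest, so small falls are harder to call at low counts. Zfp637 (chromosome 6, 117841180 to 117845956, plus strand) held 362, 386 and 382 normalized counts in wild type and 325, 279 and 307 in Txn1 KO (ratio 0.806). Zfp943 (chromosome 17, 21962552 to 22071168, plus strand) held 379, 400.2 and 345 against 275, 311 and 323 (ratio 0.809). Both genes had groups that did not overlap. Zfp954 (chromosome 7, 7114690 to 7121488, minus strand) held 365, 338 and 388 against 308, 323 and 271, and Zfp866 (chromosome 8, 69761326 to 69791178, minus strand) held 421, 389 and 392 against 314, 335 and 346. Their ratios were 0.827 and 0.828, again without overlap of the groups. Zfp874a (chromosome 13, 67424549 to 67451624, minus strand) held 429, 438 and 442 in wild type against 389.5, 327 and 379.5 in Txn1 KO. Zfp709 (chromosome 8, 71882019 to 71895727, plus strand) held 423, 499 and 469.5 against 363, 379.9 and 428, and it was the only one of the 16 called members whose groups overlapped, through wild-type replicate 1 and Txn1 KO replicate 3.

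At the highest counts the called falls were slight. Zfp865 (chromosome 7, 5020376 to 5036768, plus strand) held 973, 1004 and 980.2 normalized counts in wild type and 839, 845 and 903 in Txn1 KO (ratio 0.875, limma adjusted p = 0.0171). Of its longest transcript 36.0% lies in stretches near-identical to other genes, the longest of them in Zfp784, a member that overlaps it on the opposite strand. The reads of this pair cannot be told apart without strand. Gm44973, Ccdc106 and 4632433K11Rik overlap Zfp865 on the same strand, where strand would not separate the reads. Zfp646 (chromosome 7, 127876221 to 127885996, plus strand) held 990.4, 1093 and 1113 against 954, 928 and 946 (ratio 0.885, limma adjusted p = 0.0358). Its groups did not overlap, and Zfp668 and Prss53 overlap it on the opposite strand.

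Zfp608 was the 1 member that rose. Known from work in thymocytes as a repressor of the recombination genes Rag1 and Rag2, it lies on chromosome 18 (54888048 to 54992555, minus strand). It held 289, 262 and 290.1 normalized counts in wild type and 388, 357 and 315 in Txn1 KO, with all Txn1 KO values above all wild-type values. The ratio of means was 1.26 (log2 0.33 ± 0.095, SE, n = 3 each; limma adjusted p = 0.0198). Gm26742 and Gm4221 overlap it on the opposite strand.

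**Figure D2:**
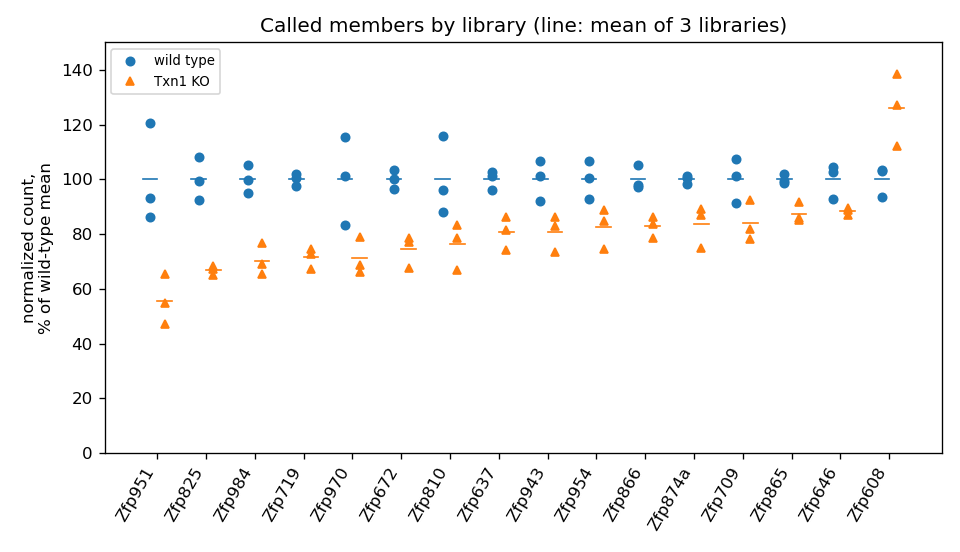
Normalized counts of the 16 called members in each library, as a percentage of the gene's wild-type mean (circles: wild type; triangles: Txn1 KO; short lines: means of 3 libraries). The Txn1 KO means run from 55.6% in Zfp951 to 126% in Zfp608, and only in Zfp709 do the groups overlap.

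Only 3 of the 16 called members kept the call without each library in turn. Over the 6 left-out libraries 43 of 96 calls of these members were lost. Zfp984, Zfp825 and Zfp672 were called in all 19 alternatives, among them leaving out each library in turn. The other 13 lost the call in 2 (Zfp951) to 11 (Zfp954) alternatives, and no called member changed direction. With 1 library left out the changes of the 16 members were 70.1% to 130% of those with all libraries on the log2 scale; Zfp719, for example, ranged from -0.51 to -0.44. Fewer libraries also weaken the test itself. Over all tested genes the calls, 3001 with all libraries, numbered 2547, 2432 and 2087 without wild-type replicates 1, 2 and 3. They numbered 2447, 2519 and 2816 without Txn1 KO replicates 1, 2 and 3. Without wild-type replicate 2, 5 members fell and 0 rose: 11 calls were lost, those of Zfp608, Zfp637, Zfp646, Zfp709, Zfp719, Zfp810, Zfp865, Zfp874a, Zfp943, Zfp951 and Zfp970 (limma adjusted p 0.0582 to 0.203). Without wild-type replicate 3, 6 fell, with the calls of Zfp637, Zfp646, Zfp709, Zfp719, Zfp865, Zfp866, Zfp874a, Zfp954 and Zfp970 lost (0.0559 to 0.190). Without wild-type replicate 1, 10 fell, with Zfp719, Zfp810, Zfp866, Zfp874a, Zfp943 and Zfp954 lost (0.0519 to 0.0983). Without Txn1 KO replicate 1, 9 fell, with Zfp608, Zfp646, Zfp709, Zfp865, Zfp866, Zfp943, Zfp954 and Zfp970 lost (0.0670 to 0.177). Without Txn1 KO replicate 2, 11 fell, with Zfp608, Zfp637, Zfp646, Zfp709, Zfp810, Zfp865 and Zfp874a lost (0.0610 to 0.158), and without Txn1 KO replicate 3, 14 fell, with Zfp954 and Zfp970 lost (0.0822 to 0.148). Without both libraries with liver transcripts 14 fell and 1 rose, and the median change of the members was -0.12. By the adjusted p of the authors' deposited table, lower calls number 10 and higher calls 1 among the members.

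Taken as a whole, the members stood higher in each wild-type library than in each Txn1 KO library. Each value was set against the gene's mean over the 6 libraries on the log2 scale, and the median over the members was 0.03, 0.08 and 0.05 in wild-type replicates 1 to 3 and -0.06, -0.05 and -0.03 in the Txn1 KO libraries. A gene's deviations sum to 0, so values above 0 in wild type go with values below 0 in Txn1 KO and are no separate result. The same medians over all tested genes were 0.00 in each library. Of the pairs of a wild-type and a Txn1 KO library, wild-type replicate 1 and Txn1 KO replicate 3, those with liver transcripts, were the closest. In them 54.6% and 45.4% of the members lay above the gene's mean over the 6 libraries. Groups did not overlap in the downward direction for 33 members (23.4%, beside 17.6% of all tested genes) and in the upward direction for 8 (5.67%, beside 18.5%).

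**Figure D3:**
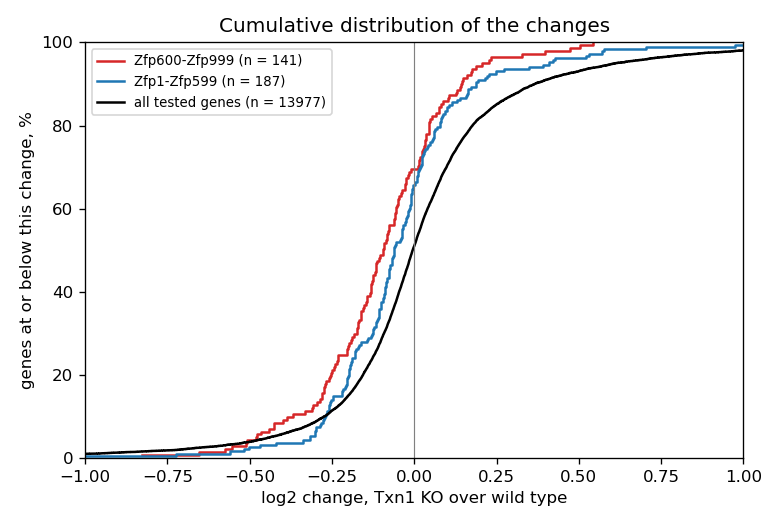
Cumulative percentage of genes (vertical) at or below a given log2 change (horizontal) for the 141 members (red), 187 lower-numbered Zfp genes (blue) and all 13977 tested genes (black); the axis ends at 1 in both directions. Values beyond the ends are not drawn. The red curve crosses 0 at 69.5%, the blue at 65.8% and the black at 51.0%.

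The lower-numbered Zfp genes, Zfp1 to Zfp599, were also called lower more often than higher. Of 187, 13 fell and 3 rose (6.95% and 1.60%, beside 9.97% and 11.5% of all tested genes). Both shares are below those over all tested genes. The median log2 change was -0.06, with 123 below 0 (65.8%, beside 51.0% of all tested genes). Whether the members differ from them was not tested.

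Several members have well studied proteins, and none of the following passed the test. Zfp809, which recognises the proline primer binding site of mouse retroviruses and brings TRIM28 to it, held 269, 264 and 272 normalized counts in wild type and 209.8, 257 and 281 in Txn1 KO (limma adjusted p = 0.520). The Txn1 KO values were scattered around the wild-type values. Zfp932, a binder of endogenous retroviruses of the ERVK class, held 261, 244 and 251 against 271, 245 and 257, with a 95% interval of the log2 change of -0.17 to 0.23. Zfp961, which recognises a lysine primer binding site, held 230.3, 263 and 252 against 238, 233 and 233 (interval -0.28 to 0.12).

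Zfp638, a nuclear protein that silences unintegrated retroviral DNA together with the HUSH complex, held 1208, 1334 and 1283 normalized counts in wild type and 1214, 1216 and 1237 in Txn1 KO (limma adjusted p = 0.463). Zfp746, also called PARIS, a target of the ubiquitin ligase parkin, held 753, 718 and 763 against 893, 744 and 841. Its groups overlapped (limma adjusted p = 0.148), and it passed only without Txn1 KO replicate 2 (limma adjusted p = 0.0330). Zfp652, a transcriptional repressor, held 1437, 1325 and 1463 against 1301, 1447 and 1593, with the widest spread in Txn1 KO (SD 146). Zfp827, which recruits the NuRD complex to telomeres, held 46.9, 38.1 and 34.4 against 63.8, 49.8 and 56.5. The groups did not overlap but the adjusted p was 0.124 in limma.

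The members with the highest levels per kb of exon were all without a call. Zfp706, a small nuclear protein, had the highest mean level, 525 normalized counts per kb, followed by Zfp830, a splicing-associated protein, at 516, Zfp740 at 466, Zfp710 at 451 and Zfp703, a transcriptional cofactor, at 360. Zfp706 held 2716, 2393 and 2681 normalized counts in wild type and 2715, 2657 and 2542 in Txn1 KO. Zfp830 held 810.0, 799 and 769 against 874, 813 and 864, with no overlap and an adjusted p of 0.243 in limma. Zfp740 held 2392, 2463 and 2472 against 2323, 2296 and 2301, also without overlap (limma adjusted p = 0.160). Zfp710 held 3317, 3063 and 3287 against 3015, 3104 and 2977, and Zfp703 held 1234, 1204 and 1171 against 1179, 1328 and 1218. In none of these 5 did the 95% interval reach a change of 0.25 on the log2 scale.

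The largest differences without a call were all in members with few counts. Zfp791 held 49.9, 51.3 and 45.3 normalized counts in wild type and 33.6, 37.3 and 22.9 in Txn1 KO (log2 difference -0.65, limma adjusted p = 0.0772). Zfp784, the partner of Zfp865, held 14.3, 17.9 and 14.3 against 8.11, 9.57 and 13.5 (-0.55, limma adjusted p = 0.394). Zfp697 held 37.7, 53.6 and 47.8 against 70.7, 57.4 and 75.4 (0.54, limma adjusted p = 0.0804). In these 3 genes the groups did not overlap. Zfp773 held 77.4, 76.9 and 66.2 against 45.2, 61.2 and 48.4, also without overlap (-0.51, limma adjusted p = 0.0760), and lies beside the called Zfp954.

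Most members lie in runs of neighbours on a chromosome. With at least 3 members whose successive starts are within 1 Mb, 91 of the 141 fell into 16 runs of 3 to 14 members. Chromosome 7 held 36 members in all, chromosome 17 held 22, chromosome 8 held 15 and chromosome 13 held 13. In the runs 71 of 91 members had a log2 change below 0 (median -0.12, 11 called lower, 0 higher). Outside the runs it was 27 of 50 (median -0.02, 4 called lower, 1 higher). Over all tested genes 9.97% were called lower and 11.5% higher, and 51.0% had a change below 0. Whether members in runs differ from the other members was not tested. The calls were scattered: 11 runs had 1 called member each and 0 runs had 2 or more.

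The run with the lowest median, singled out after its values were seen, was on chromosome 8 (69209038 to 69791178), with 6 members and a median log2 change of -0.27. Besides the called Zfp866, Zfp869 held 401, 454 and 378 normalized counts in wild type and 339.7, 361 and 347 in Txn1 KO (limma adjusted p = 0.0639). Zfp930 held 149, 193 and 161 against 133, 143 and 131 (limma adjusted p = 0.122). Zfp963 differed by -0.28 and Zfp964 by -0.27, while Zfp868 went the other way at 347, 385 and 348 against 387, 422 and 384. Zfp866 and Zfp963 both have their longest near-identical match in Gm20422, and matches to any other gene cover 13.0% and 40.9% of their transcripts. Whether reads are shared between them was not tested.

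The largest run, on chromosome 17 (21383748 to 22867134), had 14 members, of which 7 were below 0, and only Zfp943 was called. On chromosome 7 (127244274 to 127885996) all 9 members of a run were below 0, from -0.18 to -0.06, and only Zfp646 was called. A run on chromosome 4 (146449023 to 147848366) holds Zfp992, Zfp993, Zfp991, Zfp984 and Zfp933, all below 0. Of these only Zfp984 was called, and Zfp991, Zfp992 and Zfp993 share 54.8% to 99.9% of their transcripts with other genes. The member nearest to Txn1 on chromosome 4 was Zfp618, at 5.02 Mb (log2 difference 0.40, limma adjusted p = 0.183), and those nearest to Lyz2 on chromosome 10 were Zfp938 and Zfp873, at 35.1 and 35.2 Mb (0.07 and -0.08, neither called).

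**Figure D4:**
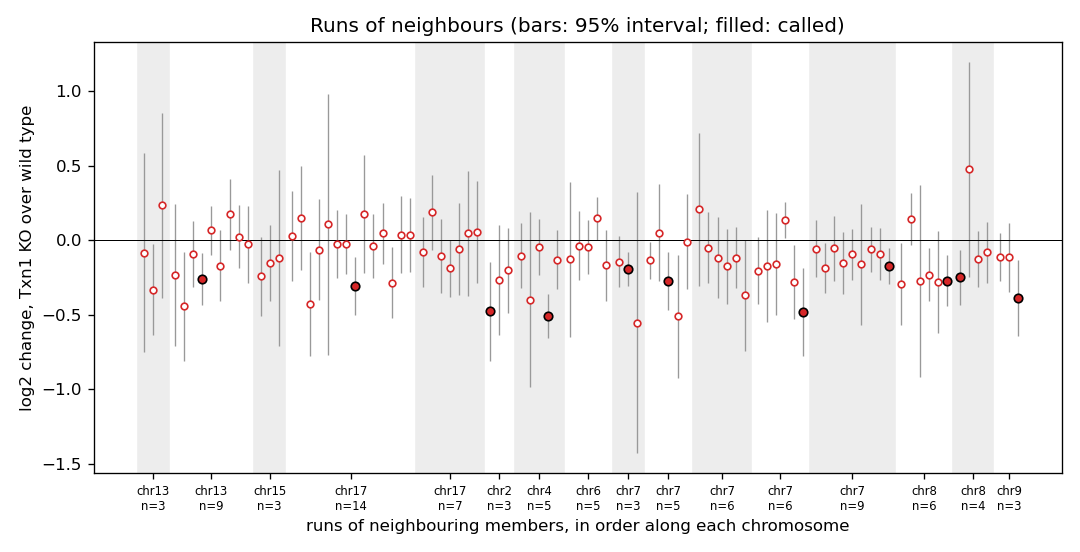
Log2 change (Txn1 KO over wild type) of the 91 members in the 16 runs, in order along each chromosome, with 95% intervals; filled points were called and shading separates the runs. In 6 runs every member is below 0, and no run has more than 1 filled point.

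Sequence shared with other genes limits some of these values. The other gene can be a copy elsewhere or a gene that overlaps the member in place, as Gm20707 does Zfp984 and Prss53 does Zfp646. Copies and overlapping genes were not counted apart. Of the 141 members, 44 share a stretch of at least 150 bases at 98% identity or more with a transcript of another gene, and in 10 members such stretches cover 25% or more of the longest transcript. Zfp955a (100%) and Zfp955b (76.7%), a neighbouring pair, differed by 0.05 and 0.06 on the log2 scale, neither called. Of the 16 called members, 8 have such a stretch, all among those that fell. Another annotated gene overlaps 65 members, in 49 of them on the opposite strand.

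The machinery that KRAB zinc finger proteins act through was mostly without a call. Of 36 listed genes for co-repressors and heterochromatin, 3 rose and 4 fell (8.33% and 11.1%, beside 11.5% and 9.97% of all tested genes), with a median log2 change of 0.00. Trim28, the shared co-repressor, held 3693, 3579 and 3772 normalized counts in wild type and 3393, 3504 and 3336 in Txn1 KO. All Txn1 KO values lay below all wild-type values, and the log2 difference of -0.11 just missed the threshold (limma adjusted p = 0.0511). Setdb1, the methyltransferase that TRIM28 recruits, differed by 0.06 (limma adjusted p = 0.504). The HP1 genes Cbx1, Cbx3 and Cbx5 differed by 0.00, -0.13 and -0.17, none called.

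Daxx, a histone H3.3 chaperone that works with ATRX, fell from 2872, 2951 and 3266 normalized counts to 2364, 2526 and 2103 (ratio 0.769, limma adjusted p = 0.000173). Dnmt3a, a de novo DNA methyltransferase, fell from 8247, 8309 and 8393 to 7101, 7606 and 6553 (ratio 0.852). Chd3, a remodeller of the NuRD complex, fell from 3937, 3675 and 3839 to 3184, 3363 and 3313 (ratio 0.861). In each of these the groups did not overlap. Setdb2, a further H3K9 methyltransferase, fell by 0.39 on the log2 scale (limma adjusted p = 0.00702; 0.0526 without wild-type replicate 3). Mphosph8, the chromodomain subunit of HUSH, rose from 818 ± 22.3 to 971 ± 80.2 normalized counts (SD; limma adjusted p = 0.00949; 0.0835 without both libraries with liver transcripts). Sumo3, a small modifier protein, rose by 0.14 (limma adjusted p = 0.0105; 0.0514 without Txn1 KO replicate 1). The largest change was that of Dnmt3l, the catalytically inactive partner of DNMT3A, which rose from 19.4, 27.2 and 23.5 to 73.0, 66.0 and 57.9 normalized counts (ratio 2.81, limma adjusted p = 0.000263). Without a trend in limma's prior, Daxx, Dnmt3a, Setdb2, Mphosph8 and Sumo3 lost the call (limma adjusted p 0.0558 to 0.0883).

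**Figure D5:**
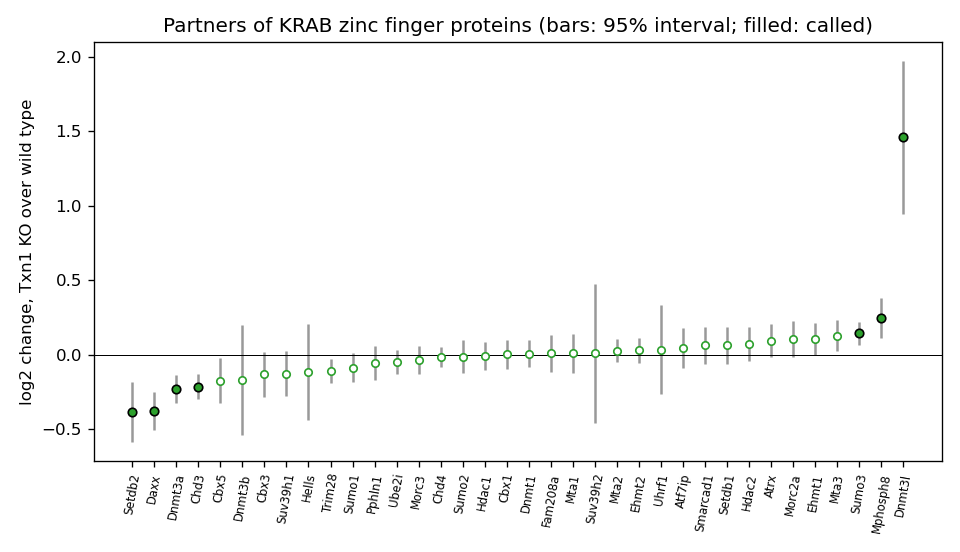
Log2 change (Txn1 KO over wild type) of 36 genes that act with KRAB zinc finger proteins or in heterochromatin, with 95% intervals, ordered by change; filled points were called. Setdb2, Daxx, Dnmt3a and Chd3 lie below 0 and Sumo3, Mphosph8 and Dnmt3l above it, while the other 29 were not called.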

How the data were processed

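RNA-seq values of 6 libraries, 3 wild-type and 3 Txn1 KO, came from the table the authors deposited. The submitters' processing notes name STAR 2.5.2b, Trimmomatic 0.36, bcl2fastq 2.20 and DESeq2, and the build GRCm38 (mm10). The sources used here do not give the read counter, its strand setting or the annotation. The deposited signal per library is a read count divided by 1 size factor, as the values show: 100% are whole multiples of the library's step within 0.01 reads. A read was worth 0.777 to 1.35 normalized counts, so 3 reads, the floor, came to 2.33 to 4.04 (counting error only). The deposited log2 fold changes, p-values and adjusted p-values are the authors' own. Columns named only BMDM with a replicate number were matched to wild type.

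The main test was limma 3.58.1 (R 4.3.3, trended prior) on log2(normalized count + 1) for 13977 genes (mean of 10 or more), two-sided, Benjamini-Hochberg adjusted, called under 0.05; changes on this scale understate those of low genes. No label states separate animals or cultures for the replicates; if they share one, the spread behind the p-values is technical. Alternatives used edgeR 4.0.16 and DESeq2 1.42.0 on the recovered reads. The method was also run on simulated libraries. Those had the same spread setting for every gene and far fewer changed genes than were called here, so they do not vouch for these calls. Positions and exon lengths are from GENCODE M21, promoters from RefSeq (GRCm38.p6), and near-identical stretches, also those of overlapping genes, from BLAST 2.17.0. Members and lists were chosen with earlier results of these data known. Named were Txn1, Lyz2, all called members, the 5 highest per kb, the 5 largest differences without a call, members of known role, and called co-repressor genes. Neighbours in runs, copies and uncalled co-repressor genes were named after their values were seen. A planned count of KRAB domains in the proteins was not run.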

Additional observations from a re-analysis of the deposited data

How the results depend on the processing

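The median log2 change of the members was below 0 in all 17 alternatives that give one, from -0.12 (quantile normalization, the 1 value that moved by more than the spread between replicates) to -0.08. Without a trend in limma's prior, 9 members fell and 0 rose, 4 lower-numbered Zfp genes fell, and 1 co-repressor gene rose and 1 fell. At an adjusted p under 0.01, 3 members fell and 0 rose and 5 lower-numbered Zfp genes fell; at 0.10, 3 members rose. Leaving out each library in turn gave 5 to 14 members that fell and 0 to 1 that rose, and 6 to 13 lower-numbered Zfp genes that fell. The other counts of members, lower-numbered Zfp genes and co-repressor genes stayed within 1.5 times those reported. Over all tested genes the calls, 3001 as reported, numbered 1525 without the trend and 1833 at an adjusted p under 0.01. On the recovered reads edgeR called 14 members lower and DESeq2 10, each with 1 higher. Runs of neighbours numbered 13 at a gap of 500 kb and 16 at 2 Mb. Deviations of same-numbered libraries from their group means had correlations of -0.27, 0.14 and -0.33. The highest of any pair was 0.43, between wild-type replicate 1 and Txn1 KO replicate 3, those with liver transcripts. Deviations within a group sum to 0, which forces some negative values, so these correlations cannot decide whether the numbers pair the libraries. With the replicate block 13 members fell and 1 rose, Zfp646 and Zfp954 losing the call. Values near 0 changed sign as libraries were left out in turn, with ranges of log2 change of -0.0056 to 0.080 in Zfp703, -0.033 to 0.058 in Zfp706, -0.037 to 0.11 in Zfp652, -0.0047 to 0.069 in Zfp932, -0.21 to 0.0042 in Zfp809 and -0.051 to 0.0075 in Txn1. Without both libraries with liver transcripts Zfp652 came to -0.021 and Txn1 to 0.0050. The cause of these changes was not tested. The count of KRAB domains, with a looser pattern, was not run. Depth limits the 47 members with the lowest levels, where the median standard error was 0.19.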
